A study of Neurospora crassa with 11 samples.

Results

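The genes of the mitochondrial respiratory chain and of ATP synthase were examined in RNA-seq libraries of the filamentous fungus Neurospora crassa. They are the 57 genes whose product name in the authors' annotation holds NADH dehydrogenase, NADH-ubiquinone, NADH:ubiquinone, ubiquinol-cytochrome, cytochrome c oxidase, succinate dehydrogenase or ATP synthase. They were drawn from 9600 genes annotated in the deposited comparison tables, and the count tables hold 9758 genes. All 57 passed the filter on low counts. The choice used product names and no measured value.

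The 11 libraries came from whole fungus of the OR74A (FGSC2489) background in 4 groups. The libraries labelled A828V carry the allele xlr-1-A828V of the transcription factor gene xlr-1 at the his-3 locus, driven by the ccg-1 promoter, with the native xlr-1 replaced by the marker HygR, and were taken without a carbon source (3 libraries) or on sucrose (1 library). The deletion strain has the same replacement of xlr-1 and no allele in its place, and was taken on xylan, a plant cell wall polysaccharide (4 libraries). Wild type was taken on xylan (3 libraries). All groups share a first growth of 16 h in Vogel's medium on sucrose, after which the fungus was washed and moved. The labels abbreviate the media, spell out no time after the move and do not say if a group's libraries are separate cultures. The p-values therefore cover the spread among these libraries alone, and that spread could be technical. The question of the study was the part that XLR-1 and related regulators play in the breakdown of plant cell walls.

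Mitochondria pass electrons from NADH and succinate along a chain of membrane complexes to oxygen. Complex I takes electrons from NADH and complex II, succinate dehydrogenase, takes them from succinate. Both hand them to ubiquinone, from which complex III moves them to cytochrome c and complex IV, cytochrome c oxidase, to oxygen. Complexes I, III and IV pump protons, and ATP synthase lets the protons back to make ATP. Fungi also hold enzymes that bypass the pumps, among them alternative NADH dehydrogenases and an alternative oxidase. Most subunits are encoded in the nucleus and a few on mitochondrial DNA.

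By product name, 30 members belong to complex I, 4 to complex II, 3 to complex III, 9 to complex IV and 11 to ATP synthase. Genes whose product names lack the words above were not counted, so a complex here can be partial. The list holds no gene named for subunit alpha of ATP synthase, for example. Counts, medians and sums per complex cover the listed genes alone. Nuclear genes for subunits make up 45 of them, with 26 in complex I, 4 in complex II, 3 in complex III, 3 in complex IV and 9 in ATP synthase. Another 8 nuclear members are not such subunits: the alternative NADH dehydrogenase gene nde-1 (NCU05225), an LYR family gene named for complex I (NCU07783), the cytochrome c oxidase assembly genes NCU00641 (cox-16), cyt-1 (NCU02149), NCU02217 (cox-23) and NCU02530 (the copper chaperone Cox17), and the ATP synthase assembly genes NCU00676 and NCU02705 (Atp10). The last 4 lie on mitochondrial DNA and encode subunits 2 and 3 of cytochrome c oxidase (NCU16028, NCU16003) and subunits 1 and 6 of NADH dehydrogenase (NCU16018, NCU16004). RefSeq gives a symbol to 38 members, and the others are called here by locus name.

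The members are spread over all 7 chromosomes, with 18 of 57 on chromosome I, which is 31.6% of them, against 24.1% of all genes. One pair of nuclear members stands side by side: nuo21 (NCU05221; chromosome IV, 5704605 to 5706110), a complex I subunit, and NCU05220 (chromosome IV, 5706269 to 5707844), subunit F of ATP synthase, are 158 bases apart with no gene between them. On mitochondrial DNA, NCU16003 and NCU16004 are 2012 bases apart, also with no gene between them. The genes of 2 small complex III subunits, qcr7 (NCU08940; chromosome V, 5771454 to 5773175) and qcr8 (NCU08947; chromosome V, 5789502 to 5790740), lie 16326 bases apart with 6 genes between them. All 57 loci have the start and end that RefSeq gives in assembly NC12. The loci of 19 members overlap another gene, and since the labels do not say whether libraries kept strand, reads of such pairs cannot be told apart.

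Reads assigned to genes numbered 10317390 to 18507550 per library in the groups other than wild type and 10568613 to 18927605 in wild type. Of each library's reads in genes, 1.14% to 1.97% fell in nuclear members. The deleted gene xlr-1 (NCU06971) had 11.8, 9.79, 3.28 and 5.62 CPM (counts scaled to library size with TMM factors) in the deletion strain, against 136, 158 and 112 CPM in wild type on xylan. The libraries labelled A828V are also labelled mat a, but matA-1 (NCU01958), a gene of the other mating type, had 143, 130 and 107 reads in those without carbon and 12 in the one on sucrose. It had 0 reads in each deletion library, against 125, 93 and 91 in wild type. Deletion library 2 stands apart in its reads assigned to no gene, which made up 29.57% of all its entries, against 6.34% to 16.87% in the other 10 libraries.

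Levels of different members are compared per length, as the authors' FPKM (fragments scaled by transcript length and library size). Averaged over the 11 libraries, the 45 nuclear subunit genes had a median position at percentile 95.9 of all genes, and 44 of them lay in the top 10%. The remaining one was NCU00644, subunit G of ATP synthase, at percentile 87.9. The median level over subunits was 216 FPKM for complex I, 217 for complex II, 232 for complex III, 370 for complex IV and 341 for ATP synthase. The highest was atp-2 (NCU05430), which encodes the catalytic beta subunit of ATP synthase, at 852 FPKM, and the lowest was NCU00644 at 78.3 FPKM. Within the other complexes the highest and lowest were nuo14.8 and nuo11.6 in complex I (559 and 124 FPKM), tca-11 and tca-12 in complex II (348 and 185 FPKM), qcr8 and NCU03559 in complex III (461 and 138 FPKM), and NCU06741 and cox-4 in complex IV (546 and 153 FPKM). The 8 nuclear members that are not subunits were far lower in FPKM, between 5.97 for NCU00676 and 32.1 for NCU00641.

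**Figure D1:**
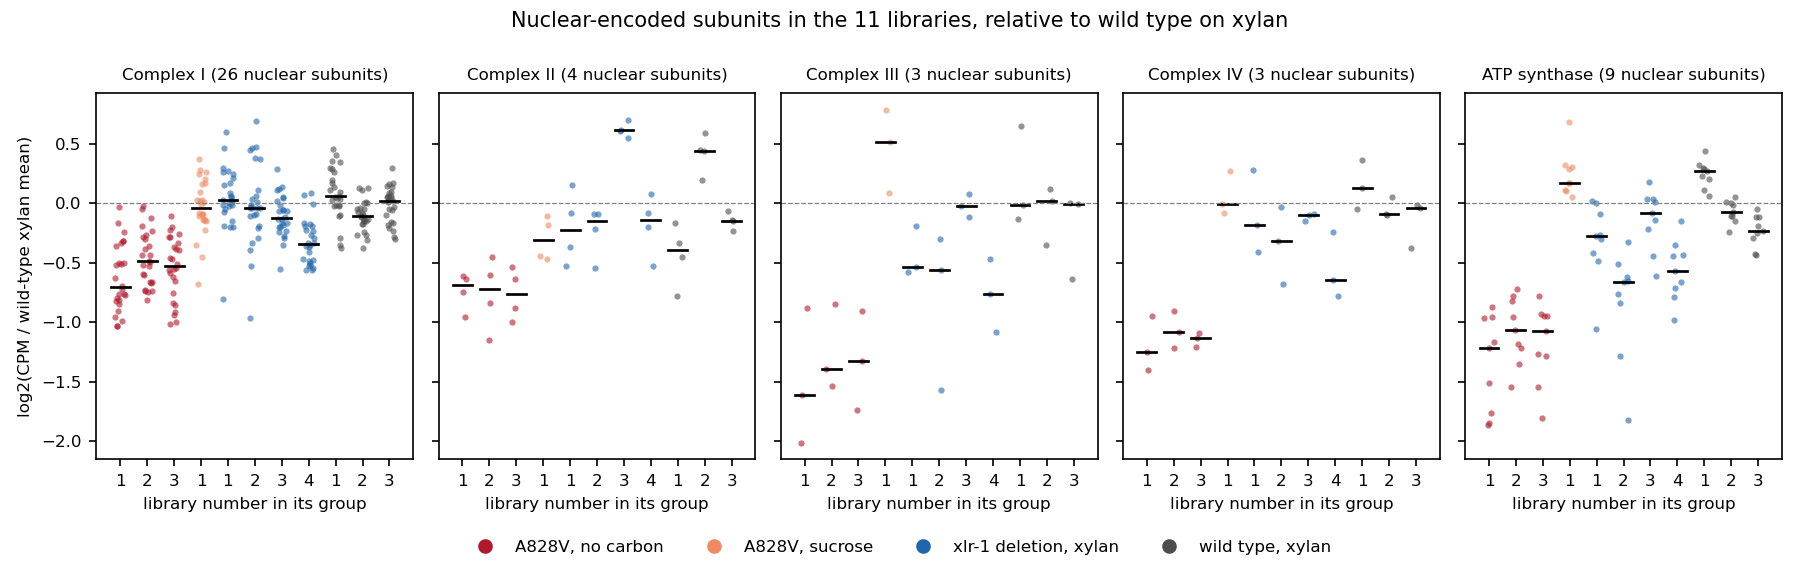
Each point is a nuclear subunit gene in 1 library, plotted as log2 of its CPM over its mean in wild type on xylan (y axis), with libraries along the x axis in the order A828V without carbon, A828V on sucrose, deletion on xylan and wild type on xylan, and black bars at the median. The A828V libraries without carbon lie lowest in complexes III and IV and in ATP synthase, and less far from the wild-type libraries in complex I.

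The first comparison set the A828V libraries without carbon against wild type on xylan, in which strain and medium both differ and cannot be told apart. Of the 57 members, 21 fell, 0 rose and 36 did not pass the test, where 11.5% of all 8557 genes tested fell and 9.29% rose. The falls took in all 9 listed nuclear subunits of ATP synthase, all 3 of complex III and all 3 of complex IV. They took in 5 of 26 in complex I and 0 of 4 in complex II. Of the 8 nuclear members that are not subunits, 1 fell, the copper chaperone gene NCU02530. The median log2 fold change was -1.10 over the ATP synthase subunits, -1.44 over complex III and -1.15 over complex IV, against -0.58 over complex I, -0.72 over complex II and -0.01 over all genes. Calls are those of edgeR's quasi-likelihood test with a Benjamini-Hochberg adjusted p under 0.05. The contrast in calls between complexes was less sharp with DESeq2 and with the groups fitted alone. The medians on the FPKM scale kept it, and the calls on that scale kept it in part. With limma on log2(FPKM + 1), 8 members were lower, and cox-4, cox-6 and NCU06741 of complex IV were not among them. The calls of qcr7, des, NCU00502, NCU03199, NCU05220 and complex I were lost too. With the median of each library set to 0, chosen after seeing the data, 24 were lower and none of the 21 was lost. The share of all genes in these limma fits is not given. DESeq2 called 30 members lower and 0 higher, where 14.4% of all genes were lower and 13.1% higher, with 12 of 26 in complex I and 2 of 4 in complex II beside all 15 subunits of the other complexes. With the groups fitted alone, 11 of 26 in complex I and 2 of 4 in complex II were lower, where 18.4% of all genes were lower and 18.0% higher. On the FPKM scale the medians were -0.78 for ATP synthase, -1.11 for complex III, -0.73 for complex IV, -0.20 for complex I and -0.30 for complex II, beside 0.24 to 0.34 over all genes.

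ATP synthase is built of a catalytic head, a rotor and a stator that holds the head still. The beta subunit gene atp-2 (chromosome II, 1611546 to 1614821) had 713, 948 and 827 CPM in the A828V libraries without carbon, against 3019, 2424 and 1794 CPM in wild type on xylan. Every A828V library lay below every wild-type library, a 2.91-fold difference with a log2 fold change of -1.54 (SE 0.37, edgeR adjusted p = 0.0198). The gene of subunit gamma, NCU09119 (chromosome I, 5402184 to 5404521), the shaft that turns inside the head, had 228, 287 and 270 CPM, against 784, 620 and 546 CPM in wild type. Again no library of one group reached the other, and the log2 fold change came to -1.31 (SE 0.25, edgeR adjusted p = 0.00859). For des (NCU00385), which encodes subunit delta of the central stalk, the values were 101, 159 and 152 CPM, against 500, 332 and 273 CPM in wild type. Its log2 fold change was -1.42 (SE 0.36, edgeR adjusted p = 0.022), and wild-type library 1 held the highest value.

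The largest fall within ATP synthase was that of NCU00644 (chromosome I, 7721242 to 7723313), subunit G, whose yeast counterpart helps 2 ATP synthases to pair in the membrane. It had 56.0, 69.0 and 57.5 CPM in the A828V libraries without carbon, against 247, 170 and 186 CPM in wild type on xylan. The groups were far apart, with a log2 fold change of -1.72 (SE 0.31, edgeR adjusted p = 0.00662), or 3.30-fold. The stator genes moved less. NCU01606 (subunit 5, known in yeast as OSCP), NCU00502 (subunit 4), NCU00636 (subunit D) and NCU03199 (subunit H) averaged 261, 283, 264 and 190 CPM in the A828V libraries without carbon, against 560, 523, 540 and 349 CPM in wild type. Their log2 fold changes lay between -1.10 for NCU01606 and -0.88 for NCU00502 and NCU03199. The smallest fall was that of subunit F, NCU05220, at -0.82 (SE 0.21), while its neighbour nuo21 was at -0.26 (SE 0.20) and did not pass the test.

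In complex III, NCU03559 (chromosome II, 230862 to 233611) encodes core protein 2. It had 109, 152 and 132 CPM in the A828V libraries without carbon, against 692, 345 and 284 CPM in wild type on xylan. The wild-type libraries themselves differed by more than 2-fold, and the log2 fold change came to -1.75 (SE 0.45, edgeR adjusted p = 0.0241). qcr8 was tighter, with 99.4, 116 and 121 CPM against 301, 308 and 302 CPM in wild type. Its log2 fold change of -1.44 had an SE of 0.25 and the lowest adjusted p of all members (0.00576, edgeR). The other small subunit gene, qcr7, had 270, 275 and 265 CPM against 452, 539 and 496 CPM, with a log2 fold change of -0.88 (SE 0.22, edgeR adjusted p = 0.022).

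In complex IV, the gene of subunit VIb, NCU06741, had 147, 168 and 168 CPM in the A828V libraries without carbon, against 425, 364 and 379 CPM in wild type on xylan. That gave a log2 fold change of -1.27 (SE 0.24, edgeR adjusted p = 0.00781), with the groups well apart. cox-6 (NCU06695) and cox-4 (NCU05689), for polypeptides VI and IV, averaged 223 ± 15 and 158 ± 9.27 CPM in the A828V libraries without carbon, against 439 ± 15.6 and 350 ± 91.5 CPM in wild type (SD, n = 3 each). Their log2 fold changes were -0.98 (SE 0.21) and -1.15 (SE 0.28), both past the edgeR test. Of the genes that help to build the enzyme, NCU02530 had 3.46, 5.26 and 4.88 CPM, against 13.5, 10.6 and 19.4 CPM in wild type. Its product, Cox17, delivers copper to cytochrome c oxidase, and its log2 fold change was -1.68 (SE 0.36, edgeR adjusted p = 0.0118). The other assembly genes, cyt-1, NCU00641 and NCU02217, averaged 24.5, 3.68 and 8.84 CPM, against 31.1, 5.28 and 9.33 CPM in wild type, and did not pass the test.

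In complex I, whose median moved least, nuo21.3c, nuo24, nuo21.3a, nuo21.3b and nuo19.3 fell. Of these, nuo19.3 missed the threshold in the blocked fit, without the filter on low counts and whichever single library of either group was left out. Without A828V library 1 or 3 none of these genes passed. On counts all 26 nuclear subunit genes had a negative log2 fold change, from -0.95 for nuo21.3c to -0.05 for nuo6.6. On the FPKM scale 7 of the 26 were positive, nuo6.6, nuo14.8, nuo9.5 and nuo21 among them, where the median of all genes was positive too. With the median of each library set to 0 on that scale, all 26 were negative again. nuo21.3c (NCU05009) had 143, 165 and 144 CPM in the A828V libraries without carbon, against 311, 266 and 295 CPM in wild type on xylan, with an adjusted p of 0.0106 (edgeR). nuo24 (NCU01169), whose product is an iron-sulfur subunit of the arm that binds NADH, had 113, 139 and 128 CPM, against 236, 215 and 241 CPM in wild type. In both genes every A828V library lay below every wild-type library. The same held for 22 of the 26, most of which did not pass the test, and across all 57 members for 45, where 25.9% of all genes tested had all 3 A828V libraries below all 3 of wild type and 28.4% had them above. The largest subunit gene, nuo78 (NCU01765), had 580, 495 and 539 CPM, against 770, 904 and 800 CPM in wild type, and missed the threshold at an adjusted p of 0.0803 (edgeR).

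Among the 26, nuo6.6, nuo14.8, nuo9.5 and nuo21 had log2 fold changes nearest to 0. nuo14.8 (NCU00418), the most abundant of them per length, had 227, 272 and 245 CPM in the A828V libraries without carbon, against 289, 239 and 317 CPM in wild type on xylan. These ranges overlap. nuo6.6 (NCU00160) had 204, 205 and 194 CPM, against 171, 226 and 229 CPM in wild type, and also overlapped.

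No complex II gene passed the edgeR test, while DESeq2 and the fit of these groups alone called tca-10 and tca-12 lower. The flavoprotein gene tca-12 (NCU08336), whose product holds the site where succinate is oxidised, had 341, 299 and 332 CPM in the A828V libraries without carbon, against 526, 898 and 564 CPM in wild type on xylan. The wild-type libraries spread widely, and its log2 fold change of -1.03 (SE 0.34) had an adjusted p of 0.054 (edgeR). The iron-sulfur protein gene tca-10 and the membrane anchor genes tca-11 and tca-13 had log2 fold changes of -0.66, -0.77 and -0.54. The alternative enzyme gene nde-1, whose product oxidises NADH without pumping protons, had 25.8, 31.2 and 27.3 CPM, against 72.7, 38.8 and 51.4 CPM in wild type, and its log2 fold change of -0.95 (SE 0.36) did not pass the test (edgeR adjusted p = 0.0828).

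**Figure D2:**
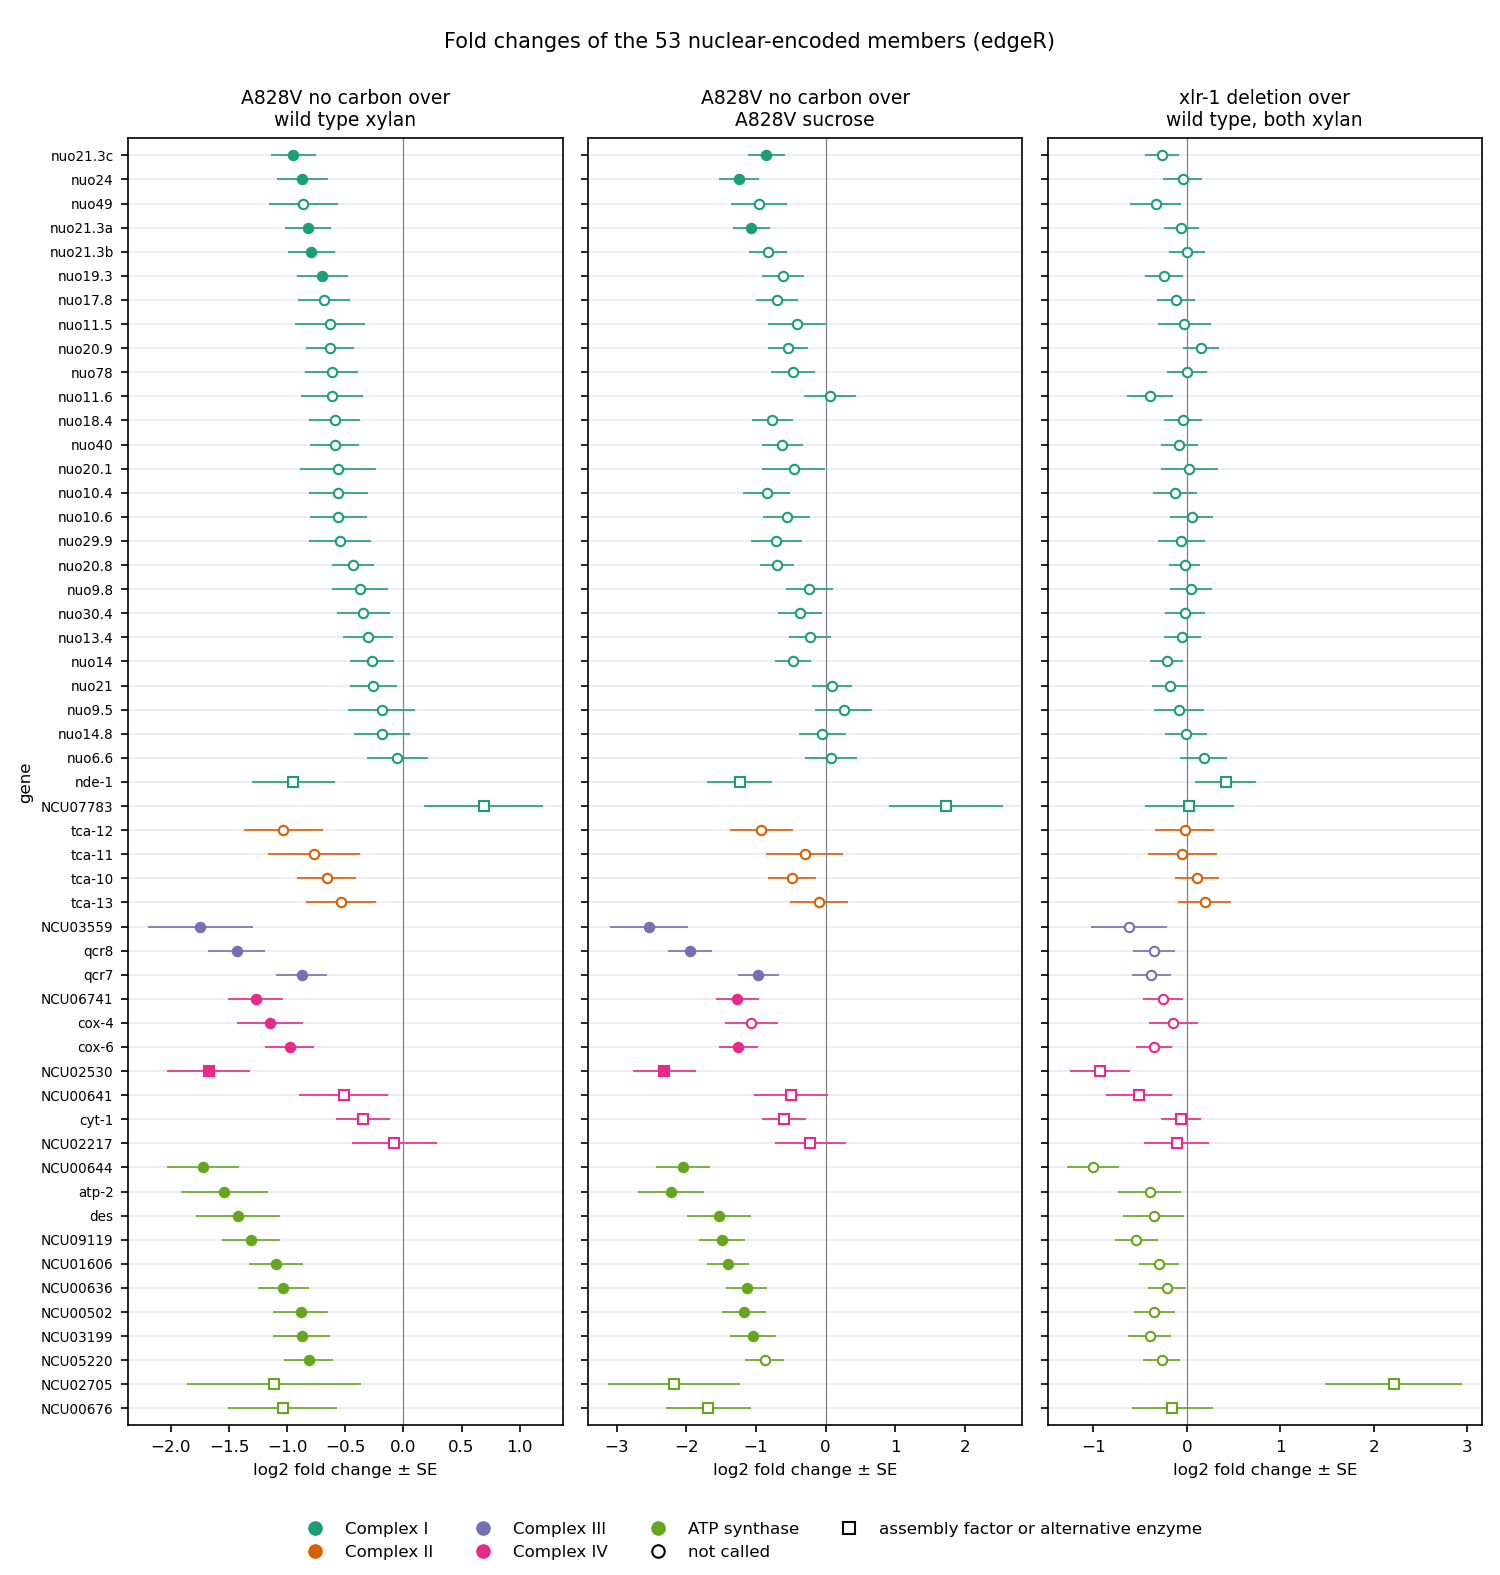
Log2 fold change with its standard error (x axis) of the 53 nuclear-encoded members (y axis) in 3 comparisons, filled where called by edgeR; circles are subunits and squares are assembly genes or the alternative enzyme. Filled points are on the left of 0 in both A828V panels and are mostly of complex III, complex IV and ATP synthase, and the deletion panel has none.

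These counts depended on single libraries. Without A828V library 1, 2 or 3 the number of members that fell was 4, 9 or 4, and without wild-type library 1 it was 11, while the log2 fold changes of the 21 moved by 0.49 at most and by 0.07 in the median. NCU00644, NCU06741, NCU09119 and qcr8 passed in each of these fits. The share of all genes lower in these fits is not given here. A loss of calls particular to the members and a loss over all genes therefore cannot be told apart. RNA from the whole fungus was measured, so that fewer cells of a type and less RNA per cell cannot be told apart. Markers of conidia, the asexual spores, stood higher in the same libraries. The summed level of con-6, con-8, con-10, con-13, eas and fl was 19807 to 23368 CPM in the A828V libraries without carbon, against 229 to 2426 CPM in wild type on xylan. Most of these sums was eas alone, at 16714, 17662 and 19833 CPM against 120, 389 and 2221 CPM in wild type. Of these 6 markers, 4 rose and 0 fell, and none was at 0 in either group. Genes of the cytosolic ribosome moved with the members too, with 58 of 70 lower and 1 higher and a median log2 fold change of -1.42, and so did those of the mitochondrial ribosome, with 12 of 18 lower, 0 higher and a median of -1.03. The part of either in the members' values was not tested.

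The second comparison set the same A828V libraries without carbon against the A828V library on sucrose, and so held the labelled strain and changed the medium. Of the 57 members, 17 fell, 0 rose and 40 did not pass the test, where 10.4% of all genes tested fell and 8.39% rose. The falls were in 8 of 9 ATP synthase subunits, 3 of 3 in complex III, 2 of 3 in complex IV, 3 of 26 in complex I and 0 of 4 in complex II, with NCU02530 in addition. The sucrose group has 1 library, whose spread was assumed to be like that of the other groups. The A828V libraries without carbon enter both comparisons.

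On sucrose, atp-2 reached its highest level of any library, with 713, 948 and 827 CPM without carbon against 3882 CPM on sucrose. Its log2 fold change came to -2.23 (SE 0.47, edgeR adjusted p = 0.0117), or 4.68-fold. NCU03559 of complex III had 109, 152 and 132 CPM without carbon, against 761 CPM on sucrose, the largest fall among the members at -2.54 (SE 0.56, edgeR adjusted p = 0.0141). qcr8 had 99.4, 116 and 121 CPM without carbon, against 433 CPM on sucrose, with a log2 fold change of -1.95 (SE 0.32, edgeR adjusted p = 0.0044).

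The remaining large falls were those of NCU02530, at 3.46, 5.26 and 4.88 CPM without carbon against 22.7 CPM on sucrose (log2 fold change -2.32, SE 0.45), and NCU00644, at 56.0, 69.0 and 57.5 CPM against 251 CPM (-2.04, SE 0.39). Then came des (-1.53, SE 0.46), NCU09119 (-1.49, SE 0.33) and NCU01606 (-1.41, SE 0.30). In complex I, nuo24, nuo21.3a and nuo21.3c fell, with log2 fold changes of -1.25, -1.07 and -0.85, and the other 23 ranged from -0.96 for nuo49 to 0.26 for nuo9.5. The subunit F gene NCU05220 missed the threshold at -0.87 (SE 0.28, edgeR adjusted p = 0.0542).

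The median log2 fold change was -1.41 over the ATP synthase subunits, -1.95 over complex III, -1.25 over complex IV, -0.55 over complex I and -0.39 over complex II, against 0.11 over all genes. On the FPKM scale the medians were -0.59 for ATP synthase, -1.42 for complex III, -0.59 for complex IV, -0.06 for complex I and 0.23 for complex II, beside 0.35 to 0.51 over all genes. With limma on log2(FPKM + 1), 4 members were lower: atp-2, qcr8, NCU00644 and NCU02530. With the median of each library set to 0, chosen after seeing the data, 15 were lower. The share of all genes in these limma fits is not given. DESeq2 called 22 members lower and 0 higher, where 12.3% of all genes were lower and 12.8% higher. Without A828V library 1, 2 or 3 the count that fell was 4, 9 or 7, the log2 fold changes of the 17 moved by 0.18 at most, and atp-2, qcr8, NCU00644 and NCU02530 passed each time. The share of all genes lower in these fits is again not given, so the lost calls cannot be read as particular to the members. Conidiation markers were again higher without carbon, at 19807 to 23368 CPM in sum against 610 CPM on sucrose (3 of 6 rose, 0 fell, none at 0). Most of these sums was eas, which was not among the 3 that rose. Of the cytosolic ribosomal protein genes 63 of 70 were lower and 1 higher, and of the mitochondrial ones 14 of 18 were lower and 0 higher. Their part in the members' values was not tested.

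**Figure D3:**
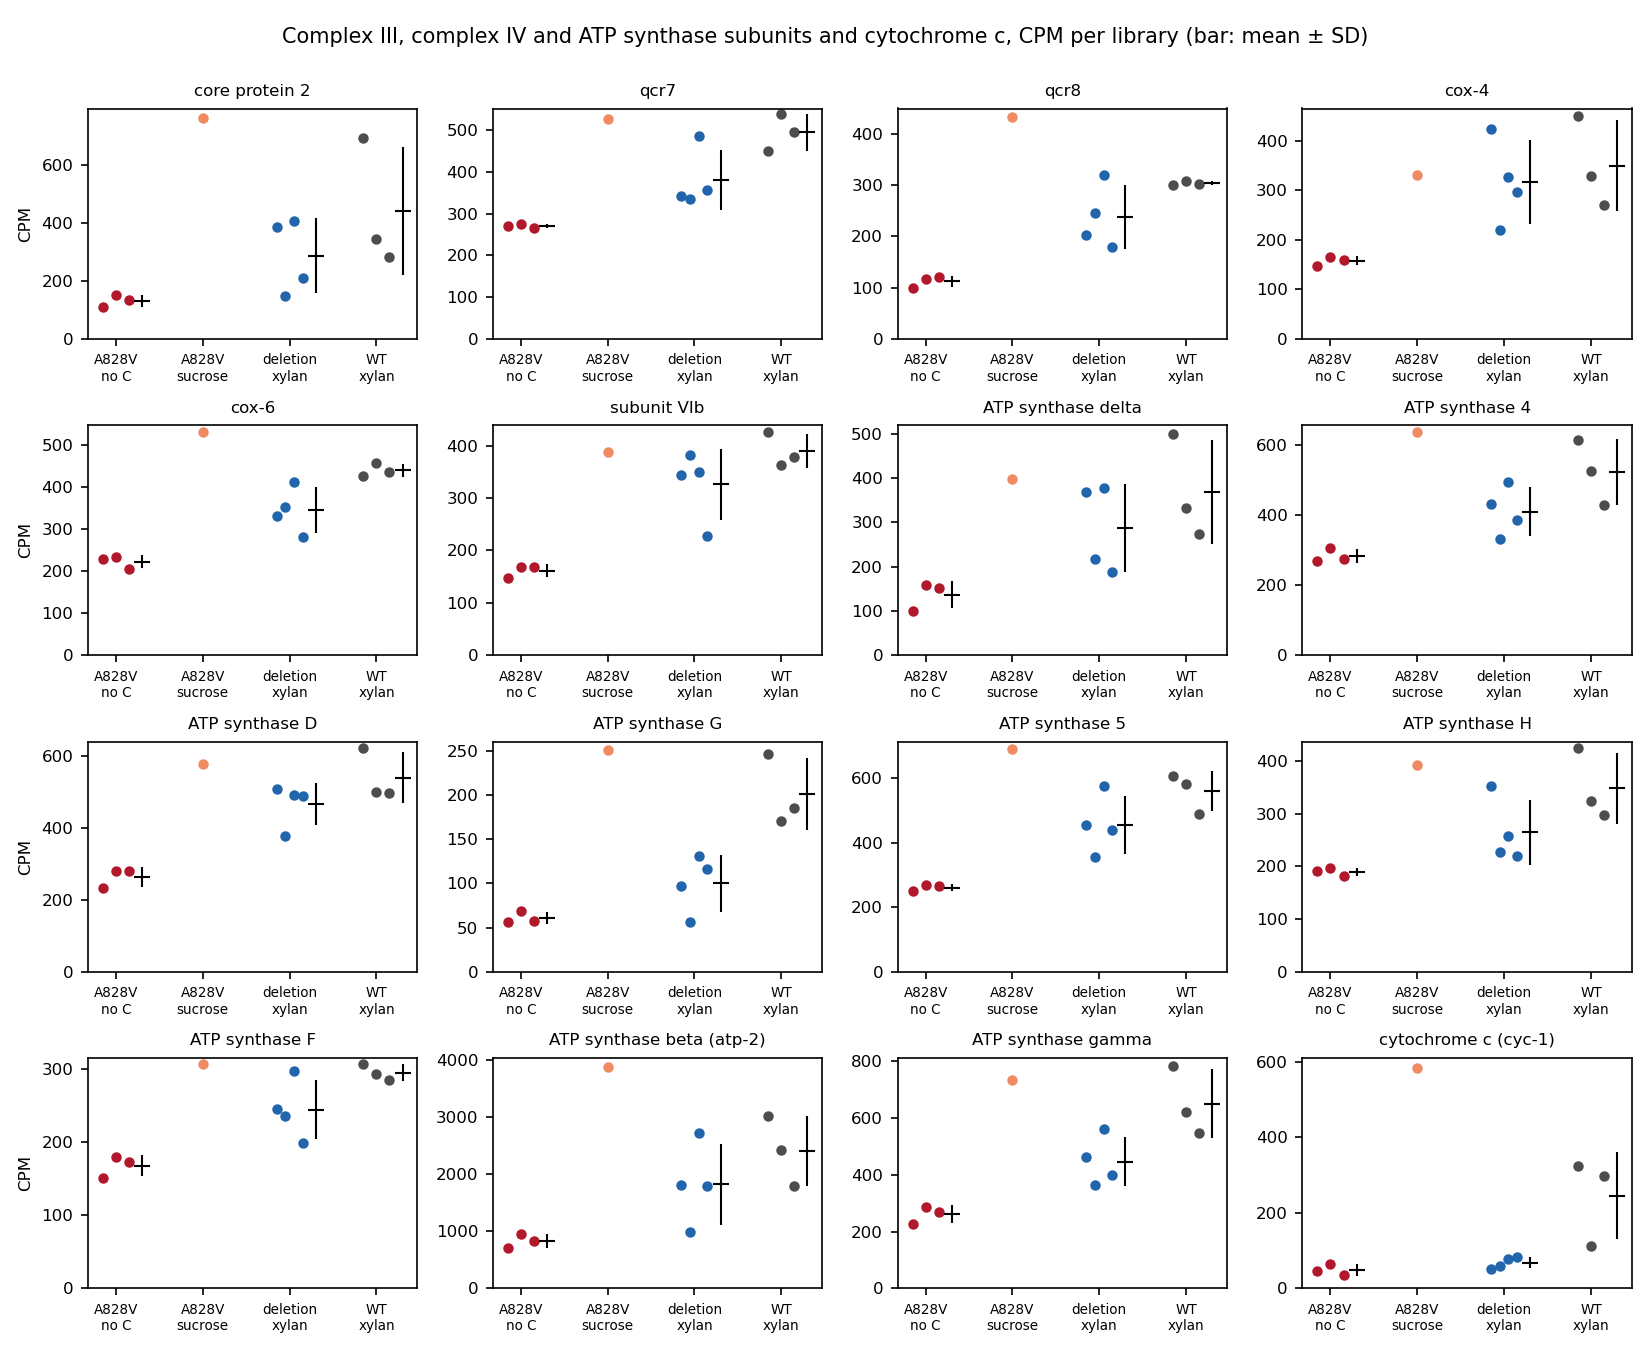
CPM per library (y axis, from 0) of the nuclear subunit genes of complex III, complex IV and ATP synthase and of cyc-1, in the groups A828V without carbon, A828V on sucrose, deletion on xylan and wild type on xylan, with a bar at the mean ± SD where a group has more than 1 library. The A828V libraries without carbon lie below all wild-type libraries in each panel, and the sucrose library of atp-2, at 3882 CPM, is the highest point of its panel.

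The balance between complexes can be read within each library. It is given as summed CPM of the listed nuclear subunits of one complex over those of complex I. For ATP synthase this ratio was 0.402, 0.445 and 0.430 in the A828V libraries without carbon and 0.960 in the one on sucrose. It was 0.544, 0.373, 0.734 and 0.607 in the deletion strain on xylan, against 0.802, 0.728 and 0.578 in wild type on xylan. For complex III the ratio was 0.0879, 0.0899 and 0.0898 in the A828V libraries without carbon and 0.210 on sucrose, and 0.107, 0.0864, 0.151 and 0.107 in the deletion strain, against 0.163, 0.150 and 0.130 in wild type. For complex II it was 0.164 to 0.188 without carbon, 0.177 on sucrose and 0.171 to 0.332 in the deletion strain, against 0.147 to 0.298 in wild type. ATP synthase and complex III genes thus had fewer reads per complex I read in the A828V libraries without carbon than in wild type or on sucrose, and the complex II ratios overlapped. The deletion libraries spread over both ranges. The ratios were not tested, since they sum the members already called above.

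The third comparison set the deletion strain against wild type, both on xylan. Besides xlr-1, reads of the mating type gene matA-1 differed, at 0 in each deletion library and 125, 93 and 91 in wild type. A difference in mating type and the deletion of xlr-1 cannot be told apart here. Of the 57 members 0 rose and 0 fell, where 0.573% of all genes tested fell and 0.0234% rose. At an unadjusted p under 0.05, 1 was higher and 3 were lower in edgeR, where 6.92% of all genes were higher and 7.35% lower, so these counts are no more than the background. DESeq2 called 1 higher (NCU02705) and 1 lower (NCU00644), where 1.78% of all genes were higher and 2.34% lower. The median log2 fold change was -0.11 over the members and 0.05 over all genes. It was -0.05 over complex I, 0.04 over complex II, -0.38 over complex III, -0.26 over complex IV and -0.36 over ATP synthase, and all 15 subunit genes of the last 3 had a negative value, although cox-4 did not without wild-type library 1. On the FPKM scale complex I stood at 0.06 and complex II at 0.17. A p that misses the threshold leaves such differences undecided. The SE of the nuclear subunit genes in this comparison ran from 0.17 for nuo20.8 to 0.41 for NCU03559. On simulated counts for this comparison edgeR called 5 of 50 genes changed by 1 on the log2 scale and 43 of 50 changed by 2. The share called at the members' own spread was not tested.

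NCU00644 had the lowest value, with 96.7, 56.9, 131 and 116 CPM in the deletion strain, against 247, 170 and 186 CPM in wild type. Its groups did not overlap, yet the log2 fold change of -1.0 (SE 0.28) had an adjusted p of 0.145 (edgeR). The other member without overlap was cox-6, with 331, 353, 412 and 280 CPM in the deletion strain, against 426, 456 and 436 CPM in wild type. Among all genes tested, 5.01% had every deletion library below every wild-type library and 4.70% had the reverse, so that 2 of 57 members is close to the background. The other lower members at an unadjusted p under 0.05 were NCU09119 (-0.54, SE 0.23) and NCU02530 (-0.93, SE 0.32).

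The highest log2 fold change belonged to NCU02705 (chromosome I, 3262809 to 3264500), whose yeast counterpart Atp10 helps to assemble the membrane part of ATP synthase. It had 15.7, 32.4, 45.2 and 187 CPM in the deletion strain, against 10, 16.3 and 18.8 CPM in wild type. Deletion library 4 held most of that difference, and the log2 fold change of 2.22 (SE 0.73) had an adjusted p of 0.222 (edgeR). Its locus overlaps that of NCU02706. The complex I genes stood close to wild type, with nuo24 at 257, 250, 222 and 165 CPM in the deletion strain, against 236, 215 and 241 CPM in wild type. nde-1 had 70.6, 36.5, 101 and 81.1 CPM in the deletion strain, against 72.7, 38.8 and 51.4 CPM in wild type, and these overlap.

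The authors' deposited tables hold 2 comparisons with wild type without carbon, as mean FPKM per group with no spread, so that a loss of carbon can be seen in wild type too. In the authors' deposited table of wild type on xylan over wild type without carbon, 4 of 57 members were called higher and 0 lower, where 5.91% of its 8896 genes were called higher and 1.90% lower. Of these 4, 3 lie on mitochondrial DNA and the fourth is NCU00644, at a mean of 123 FPKM on xylan and 34.9 FPKM without carbon in the authors' deposited table (log2 fold change 1.81, authors' adjusted p = 0.0258). The median log2 fold change in the authors' deposited table was 0.92 over ATP synthase subunits, 0.96 over complex III, 1.02 over complex IV, 0.55 over complex II and 0.29 over complex I, against 0.04 over all genes. All 19 nuclear subunit genes outside complex I had a positive value there, as did 25 of 26 in complex I.

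For atp-2 the authors' deposited table gives means of 1072 FPKM on xylan and 462 FPKM without carbon in wild type, a log2 fold change of 1.21 with an authors' adjusted p of 0.469. In the authors' deposited table of A828V over wild type, both without carbon, the same gene has means of 405 and 532 FPKM (log2 fold change -0.39, authors' adjusted p = 0.986). The mean of wild type without carbon differs between the tables, so values are set side by side within a table only. Among the members, 3 were called higher in that second deposited table of the authors, all on mitochondrial DNA, and 1 lower, where 2.94% of its 8899 genes were called higher and 1.57% lower. The lower one was nde-1, at 11.2 FPKM in A828V and 31.4 FPKM in wild type (log2 fold change -1.49, authors' adjusted p = 0.0198 in the authors' deposited table). The medians over complexes in the authors' deposited table were -0.26 for complex I, -0.35 for complex II, -0.59 for complex III, -0.21 for complex IV and -0.23 for ATP synthase, with -0.05 over all genes. These tables share the means of wild type on xylan and of A828V without carbon with the comparisons above, so their values are not separate evidence.

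**Figure D4:**
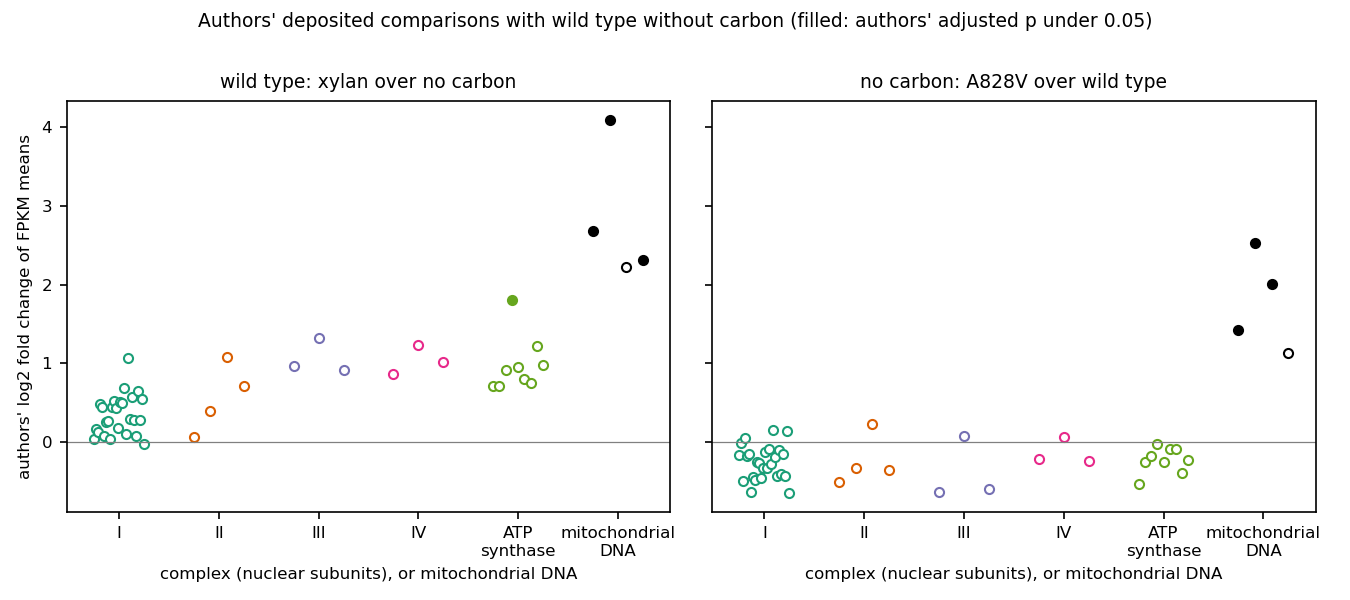
Log2 fold changes of mean FPKM from the authors' deposited tables (y axis) by complex and for the mitochondrial DNA members (x axis), left for wild type on xylan over wild type without carbon and right for A828V over wild type, both without carbon; filled points have an authors' adjusted p under 0.05. Nuclear subunits outside complex I are all above 0 on the left, with medians of 0.55 to 1.02, and lie around or below 0 on the right.

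The 4 members on mitochondrial DNA varied more between libraries than the nuclear ones. Over the 11 libraries their highest CPM was 42.5 to 301 times the lowest, against 1.46 to 33.8 times, with a median of 2.37, for the 53 nuclear members. Reads of mitochondrial DNA as a whole varied as well, so this spread was not particular to the members. Its 28 genes together held 0.0043% of reads in genes in wild-type library 1, the lowest share, and 0.2463% in deletion library 2, the highest. The gene of cytochrome c oxidase subunit 2, NCU16028, had 101, 28.2 and 37.9 CPM in the A828V libraries without carbon and 15.4 CPM on sucrose. In the deletion strain on xylan it had 3.39, 144, 24.7 and 26.7 CPM, against 6.60, 83.2 and 94.8 CPM in wild type on xylan. The deletion, wild-type and A828V libraries without carbon overlapped. The sucrose library lay below all 3 A828V libraries without carbon for each of the 4 genes, though for NCU16004 only by 1.67 against 1.77 CPM. That sets 1 library against 3, and the share of all genes in that order is not given. The 4 genes lie on the same mitochondrial DNA, so they are not separate results.

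The gene of NADH dehydrogenase subunit 6, NCU16004, had 122, 1.77 and 36.6 CPM in the A828V libraries without carbon and 1.67 CPM on sucrose, and 1.37, 105, 6.94 and 19.6 CPM in the deletion strain, against 4.30, 45.9 and 147 CPM in wild type on xylan. NCU16003 (subunit 3 of cytochrome c oxidase) spanned 1.37 to 162 CPM and NCU16018 (subunit 1 of NADH dehydrogenase) 0.200 to 60.1 CPM over all libraries. None of the 4 passed the edgeR test in any of the 3 comparisons, with adjusted p-values of 0.288 or more. With the A828V groups fitted alone, NCU16003 and NCU16018 were called higher without carbon than on sucrose, in a fit where 31.6% of all genes were higher and 30.6% lower. Their sum was lowest in library 1 of the deletion strain (6.45 CPM) and of wild type (13 CPM), and highest in deletion library 2 (471 CPM), which also held the most reads assigned to no gene. In the authors' deposited table for wild type, NCU16004 has a mean of 126 FPKM on xylan and 7.35 FPKM without carbon (log2 fold change 4.10, authors' adjusted p = 8.85e-07), and the authors' deposited table for A828V gives means of 48.8 FPKM in A828V and 8.46 FPKM in wild type, both without carbon. The authors' means are printed with no spread, while the single wild-type libraries on xylan ran from 4.30 to 147 CPM for this gene.

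**Figure D5:**
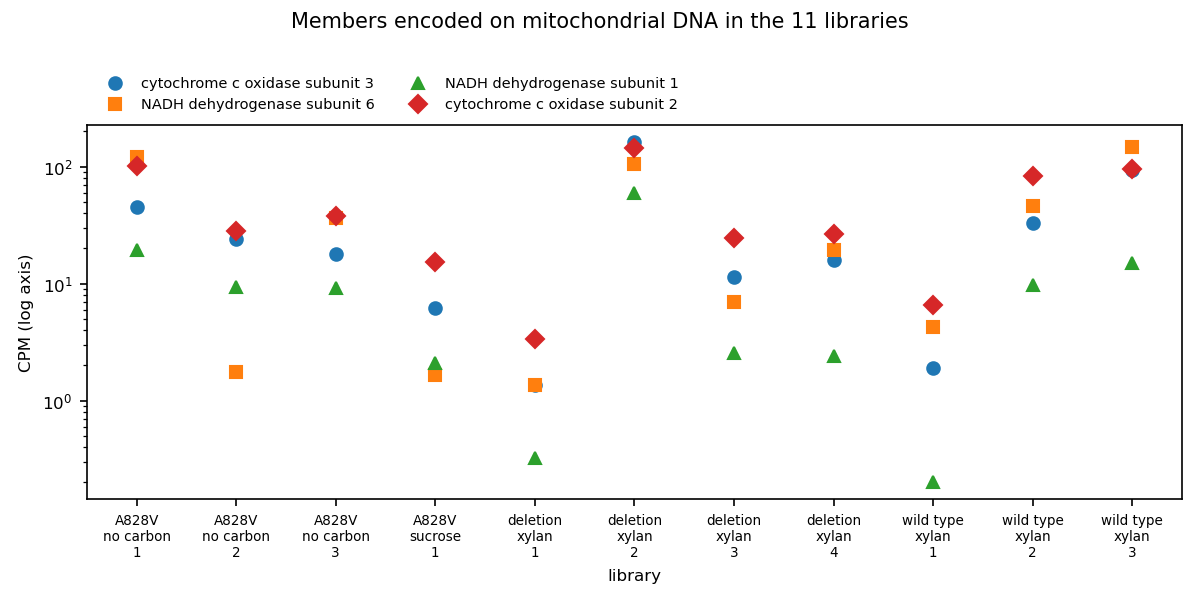
CPM of the 4 members on mitochondrial DNA (y axis, log scale) in each of the 11 libraries (x axis), from A828V without carbon on the left to wild type on xylan on the right. Points of 1 gene span 42.5-fold or more between libraries, and library 1 of the deletion strain and library 1 of wild type both lie low.

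Genes that work with the chain were read from product names as well. Cytochrome c, the carrier between complexes III and IV, is encoded by cyc-1 (NCU01808), which had 45.9, 65.3 and 34.7 CPM in the A828V libraries without carbon, 583 CPM in the one on sucrose, and 52.3, 60.4, 77.8 and 82.8 CPM in the deletion strain, against 324, 113 and 298 CPM in wild type on xylan. It fell without carbon, with a log2 fold change of -3.58 (SE 0.50, edgeR adjusted p = 0.00304) against sucrose and -2.33 (SE 0.41, edgeR adjusted p = 0.00624) against wild type on xylan, in each case more than any nuclear member. All 4 deletion libraries also lay below all 3 of wild type, but the log2 fold change of -1.84 (SE 0.37) missed the threshold at an adjusted p of 0.063 (edgeR). In the authors' deposited table for wild type it was called higher on xylan, at 284 FPKM against 50.2 FPKM without carbon.

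The porin gene por (NCU04304), whose product is the channel of the outer membrane, had 296, 324 and 369 CPM in the A828V libraries without carbon, against 1312, 743 and 691 CPM in wild type on xylan. It fell there (log2 fold change -1.47, SE 0.30) and against sucrose (-1.80, SE 0.38), both past the edgeR test. Of the 15 genes of the citric acid cycle, which feeds NADH and succinate to the chain, 5 fell and 0 rose in each A828V comparison, and 0 were called in the deletion strain. The median log2 fold change of the cycle was -0.88 against wild type and -1.33 against sucrose. The citrate synthase gene cit-1 (NCU01692) moved most, with 64.9, 85.7 and 67.9 CPM without carbon, against 936 CPM on sucrose and 1080, 420 and 420 CPM in wild type on xylan. In the authors' deposited table of A828V over wild type, both without carbon, 3 of the 15 were called lower and 0 higher. There 1.57% of all genes were called lower and 2.94% higher. cit-1 was among the 3 (log2 fold change -1.43, authors' adjusted p = 0.00759). The 2-oxoglutarate dehydrogenase gene tca-7 had 900, 935 and 1087 CPM without carbon, against 527, 516 and 431 CPM in wild type, and was not called.

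The alternative oxidase passes electrons from ubiquinol straight to oxygen. Its structural gene aod-1 (NCU07953) had 18.1, 19.8 and 17.9 CPM in the A828V libraries without carbon and 76.0 CPM on sucrose, and 9.43, 11.2, 81.0 and 1079 CPM in the deletion strain, against 14.9, 33.0 and 117 CPM in wild type on xylan. The deletion libraries spanned more than the whole of the other groups, with library 4 alone at the top. In the authors' deposited table of A828V over wild type, both without carbon, aod-1 was called lower, at 11.1 FPKM against 52.9 FPKM. Its log2 fold change there was -2.26 (authors' adjusted p = 0.00323), where 1.57% of all genes were called lower. None of the 4 genes named for alternative oxidase was called in any of the 3 edgeR comparisons. They include aod-2 (NCU03352) and aod-5 (NCU03938), whose products are known in Neurospora crassa as transcription factors for aod-1 and not as oxidases, and aod-2 was also highest in deletion library 4, at 38.0, 54, 43.3 and 130 CPM in the deletion strain, against 30.3, 33.3 and 30.9 CPM in wild type. The carrier gene NCU03989, named for exchange of ADP and ATP, had 14.1 to 14.8 CPM in the A828V libraries without carbon, 27.9 CPM on sucrose and 17.5 to 51.9 CPM in the deletion strain, against 14.5 to 23.7 CPM in wild type, with no call.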

How the data were processed

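RNA-seq libraries of whole fungus were analysed from the deposited tables. Per the submitters' processing notes, TopHat2 2.04, HTSeq 0.6, Cufflinks 2.02 and Cuffdiff 2.02 were used. Settings, use of strand and the build are not named in the labels. The authors deposited raw read counts per gene, 1 table per library, each ending in 5 entries that name no gene (6.34% to 29.57% of the total), which were left out. The FPKM values were deposited by the authors per library and, in 2 comparison tables, as group means. The authors' adjusted p-values and log2 fold changes come from those tables, per the file headers, with no adjustment method named. The 12 columns of single libraries in those tables were not used.

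Counts were tested with edgeR 4.0.16 (R 4.3.3): TMM factors, filterByExpr with a count minimum of 10, 1 coefficient per group over all 11 libraries (7 residual degrees of freedom), quasi-likelihood F-test, 2-sided, Benjamini-Hochberg adjustment over 8557 genes, calls at an adjusted p under 0.05. The SE is the log2 fold change over the root of F. Alternatives were DESeq2 1.42.0 and limma 3.58.1 on log2(FPKM + 1) and log2(FPKM + 0.1). The pipeline was tested on simulated data. No 2 libraries of a group agreed within sampling noise (lowest chi-square per degree of freedom 19.0). Deviations of same-numbered deletion and wild-type libraries correlated at 0.640, 0.264 and 0.252, against -0.563 to 0.247 for unlike numbers. The libraries numbered 1 thus stood clear as a pair, while a pairing of the others is not shown. Same-numbered A828V and wild-type libraries had negative correlations (-0.103, -0.234 and -0.174).

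Members follow the product names; symbols and chromosomes come from RefSeq (assembly NC12, 57 of 57 matched), and coordinates, counted from 1, from the deposited tables. Full statistics were given to the 6 called members that rose most and the 6 that fell most in each comparison, with at least 10 CPM in the higher group, the highest and lowest per complex by FPKM, the members that are not subunits and those on mitochondrial DNA. Any other member could be named, and some were after their values were seen. Ribosomal protein, citric acid cycle, alternative oxidase, cytochrome c, carrier and porin genes were taken by product name and conidiation markers by symbol. Members, lists and tests were chosen with earlier results of these data known.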

Additional observations from a re-analysis of the deposited data

Results flagged for a closer look

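In groups of 4 libraries, a value was marked where 1 library stood off from the other 3 by more than Dixon's 95% critical value of the range. That was possible for the deletion strain alone, and 10 of 94 quantities were marked. Chance marks about 1 in 20 where values are independent and normally distributed, which was not shown for these quantities. The marked sums of the mitochondrial members and of complex II hold genes that were also marked on their own. The count of 10 is therefore not set against that rate. Deletion library 2 was highest for 3 members on mitochondrial DNA, at 161.7 CPM for NCU16003, 60.11 CPM for NCU16018 and 143.8 CPM for NCU16028, and for the sum of the 4 such members, at 470.8 CPM, where the other deletion libraries had 6.45 to 64.5 CPM. It was lowest for NCU00636, subunit D of ATP synthase, at 378.7 CPM against 489 to 508 CPM. Deletion library 3 was highest for tca-13 (536.9 CPM against 311 to 349 CPM), for the summed complex II subunits (2673 CPM against 1444 to 1553 CPM) and for qcr7 (487.5 CPM against 335 to 358 CPM). Deletion library 4 was highest for the alternative oxidase gene aod-1, at 1079 CPM against 9.43 to 81.0 CPM, and for the carrier gene NCU03989, at 51.85 CPM against 17.5 to 22.2 CPM.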

How the results depend on the processing

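In the deletion comparison no member was called under any alternative except DESeq2, which called 1 higher and 1 lower. Against sucrose, the 17 members lower became 38, with 3 higher (NCU07783, NCU16003 and NCU16018), when the compared groups were fitted alone, 4 with limma on FPKM at a pseudocount of 1, with or without the filter, or of 0.1, and 4 to 9 without single libraries. Against wild type, the 21 lower became 32, with 1 higher (NCU07783), in the groups fitted alone, 8 with limma on FPKM with or without the filter, 7 with the pseudocount of 0.1, and 4 to 22 without single libraries. Shares of all genes are not given for the limma fits or those without single libraries. Their counts therefore cannot be read as particular to the members. The median of all genes on the FPKM scale was 0.24 to 0.34 against wild type, 0.35 to 0.51 against sucrose and 0.09 to 0.12 for the deletion, where counts gave -0.01, 0.11 and 0.05. With the median of each library set to 0, chosen after seeing the data, 15 and 24 were lower. The shared biological coefficient of variation was 0.411 with all libraries and 0.438 to 0.442 without 1 A828V library; the cause of the lost calls was not tested. With the replicate number as a block, 0 members were called in the deletion comparison and 21 were lower against wild type, where nuo19.3 was lost and NCU02705 gained; no paired fit was possible against sucrose, whose library shares no number. No called member turned its direction under any of these alternatives, but members without a call did. On the FPKM scale 10 of 57 turned against wild type, 10 against sucrose and 14 for the deletion. Up to 13 turned for the deletion without a single library. With the median of each library set to 0, 0 of 57 members turned against wild type, 3 against sucrose and 11 for the deletion. Of the genes given values above, those that turned on the FPKM scale against wild type were nuo6.6 and nuo14.8 (0.24 each), nuo9.5 (0.11), nuo21 (0.03), NCU02217 (0.04), aod-5 (0.20, or 0.22 with the pseudocount of 0.1), NCU16003 (0.20 or 0.23) and NCU16028 (0.06 or 0.07). For the deletion they were nuo24 (0.08, or 0.01 with medians set to 0), NCU07783 (-0.04, -0.08 or -0.11) and NCU16003 (-0.05 with medians set to 0). The block turned nuo24 (0.03), aod-5 (-0.15), aod-1 (-0.91) and NCU16003 (-0.32) for the deletion, and NCU16003 (0.65), NCU16004 (0.70) and NCU16028 (0.81) against wild type. Leaving out both libraries numbered 1, chosen after seeing the data, turned NCU07783 (-0.13) and NCU16003 (-0.01). Without single libraries the deletion values ran from -0.45 to 0.26 for NCU00676, -0.33 to 0.26 for NCU07783, -2.18 to 1.45 for NCU16003, -2.83 to 0.39 for NCU16004, -2.26 to 1.68 for NCU16018, -1.75 to 0.13 for NCU16028, -0.75 to 3.60 for aod-1, -0.14 to 0.29 for aod-5, -0.16 to 0.02 for nuo24 and -0.56 to 0.00 for por. Against wild type they ran from -0.17 to 0.08 for NCU02217, -1.12 to 0.71 for NCU16003, -1.78 to 1.06 for NCU16004 and -0.90 to 0.27 for NCU16028. Other size factors, no filter on low counts, library sizes without mitochondrial genes and DESeq2 kept the A828V counts within 1.5 times. The nuclear subunit genes had at least 56.0 CPM in each library, while NCU00641 had 28 to 83 reads and NCU16018 had 2 to 663.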

Other observations

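Among the nuclear members, the LYR family gene NCU07783 was the one that lay higher in all A828V libraries without carbon, at 11.8, 9.04 and 9.82 CPM, against 3.08 CPM on sucrose and 6.80, 5.75 and 6.49 CPM in wild type on xylan. Of all genes tested, 28.4% had all 3 A828V libraries without carbon above all 3 of wild type and 25.9% had them below. The log2 fold changes of NCU07783, 1.73 (SE 0.81) and 0.69 (SE 0.51), did not pass the edgeR test over all libraries. They did in both comparisons with the compared groups fitted alone. In those fits 31.6% of all genes were higher against sucrose, which has 1 library, and 18.0% against wild type. LYR proteins include small subunits and assembly factors of several respiratory complexes. Both ATP synthase assembly genes lay lower without carbon, NCU00676 at 6.17, 6.84 and 6.26 CPM, against 20.7 CPM on sucrose and 19.9, 9.81 and 9.95 CPM in wild type on xylan, and NCU02705 at 5.52, 7.65 and 7.70 CPM, against 31.6 CPM on sucrose and 10, 16.3 and 18.8 CPM in wild type. Over all libraries neither was called, with edgeR adjusted p-values of 0.0796 and 0.135 against sucrose. With the compared groups fitted alone, both were called lower in both comparisons. In those fits 30.6% of all genes were lower against sucrose and 18.4% against wild type. DESeq2 called NCU00676 lower against sucrose, where 12.3% of all genes were lower. The replicate block called NCU02705 lower against wild type, and the share of all genes in that fit is not given. All 3 genes were chosen after their values were seen.

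In the deletion strain NCU04122, a gene named malate dehydrogenase, had 124, 302, 241 and 555 CPM, against 83.3, 63.9 and 67.7 CPM in wild type on xylan. The libraries did not overlap, but the log2 fold change of 2.09 (SE 0.44) had an edgeR adjusted p of 0.0792. Its other named counterparts, tca-15 and tca-16, had overlapping libraries in that comparison.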
